A study of Mus musculus with 74 samples.

Results

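The broad H3K27ac domains of mouse liver were taken as the peaks of the Ncor and Smrt H3K27ac peak set whose end lay at least 8000 bp from their start. This rule used only the width of a merged peak and no comparison between genotypes. It kept 3284 of 68818 peaks (4.77%). The domains covered 45.5 Mb of the mm9 genome (NCBI build 37), which was 27.4% of all bases under H3K27ac peaks, and they held 40.5% to 43.0% of the H3K27ac tags that fell in any peak of the 12 libraries. The questions were which genes and which corepressor and PPARα sites these regions hold, and how their acetylation differs when Ncor, Smrt or Gps2 is removed from hepatocytes.

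H3K27ac (antibody Abcam ab4729) was measured by ChIP-seq in chow-fed C57BL/6 livers, at 8-12 weeks by the labels. The groups were NCOR_WT and NCOR_LKO (3 libraries each), SMRT_WT and SMRT_LKO (3 each) and GPS2_WT and GPS2_LKO (2 each). LKO stands for a liver-specific knockout: the Gps2 LKO came from Gps2 flox/flox mice crossed with Alb-Cre mice, so that Cre is driven by the albumin promoter of hepatocytes and the other liver cells keep the gene. The GPS2_WT mice were floxed mice of the same breedings without Cre. Material of several immunoprecipitations was pooled for a library, and the sources do not say whether it came from 1 animal. The paper calls its replicates biological. A library may thus not be 1 animal, and the spread between libraries may be partly technical. GPS2 ChIP-seq of NCOR_WT and NCOR_LKO livers and of PPARa_WT and PPARa_KO livers (3 libraries each, the Ppara knockout being whole-body) and RNA-seq of GPS2_WT and GPS2_LKO livers (4 each) were also used. The libraries held between 34.3 and 46.1 M tags for H3K27ac of the Ncor and Smrt lines and between 25.02 and 29.4 M for the Gps2 line.

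The sources describe all mice as male, and the Smrt libraries went against that. The 6 Ncor-line libraries held between 1368 and 1518 tags in chromosome Y peaks and between 12 and 22 in the Xist peak. All 6 Smrt-line libraries held 0 chromosome Y tags and between 918 and 1048 Xist tags. The Gps2 RNA libraries were like the Ncor line, with Ddx3y between 1016 and 1771 counts and Xist between 0 and 15. Within a line WT and LKO libraries were alike in this respect, so the comparisons of LKO with WT do not cross it. In the difference between the Ncor and Smrt effects the line and this sex-linked signal cannot be told apart. The library Ncor LKO 1 stood closest to the other line, with a mean correlation of 0.888 with Smrt-line libraries across domains, beside 0.830 to 0.852 for the other Ncor-line libraries. These libraries hold no measure of the deletion of Ncor or Smrt itself.

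Acetylation of lysine 27 of histone H3 marks active promoters and enhancers, and long unbroken stretches of it are known to lie over genes that define a cell type and over its most highly expressed genes. NCOR and SMRT are homologous scaffold proteins that bring the histone deacetylase HDAC3 to nuclear receptors, and GPS2 is a small subunit of the same complexes. PPARα is the fatty-acid-sensing nuclear receptor of hepatocytes. It binds DNA with RXR at direct repeats of the AGGTCA hexamer spaced by a single base (DR1) and turns on fatty acid oxidation genes.

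To show what some of the called regions look like at the base level, 200 bp around the strongest GPS2 peak are printed for a pair of domains that rose in Ncor LKO and a pair that fell. The plus strand of mm9 is given, and capitals mark the 13 bases that come closest to a DR1 (AGGTCA, any base, AGGTCA) on either strand. The windows are the one near Cyp4a10 (chr4:115186685-115186884, best match on the minus strand with 3 mismatches), near Mup19 (chr4:61450866-61451065, minus strand, 1 mismatch), near Serpina4-ps1 (chr12:105314900-105315099, minus strand, 1 mismatch) and near Ndufv1 (chr19:4021060-4021259, plus strand, 2 mismatches). None overlaps an annotated exon. They were picked from the windows taken at named domains and include the only ones with 1 mismatch, so they are not typical. In the windows not printed the closest match had 2 mismatches near Mir8110 and near Cldn5 and 3 to 5 elsewhere.
Cyp4a10: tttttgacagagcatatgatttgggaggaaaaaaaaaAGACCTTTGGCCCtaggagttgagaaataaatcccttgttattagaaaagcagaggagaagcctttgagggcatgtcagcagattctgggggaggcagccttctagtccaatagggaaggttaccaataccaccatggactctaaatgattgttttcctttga
near Mup19: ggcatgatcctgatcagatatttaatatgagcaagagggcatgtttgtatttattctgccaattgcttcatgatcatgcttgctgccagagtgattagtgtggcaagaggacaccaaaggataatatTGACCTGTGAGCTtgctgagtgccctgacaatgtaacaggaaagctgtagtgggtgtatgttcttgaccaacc
near Serpina4-ps1: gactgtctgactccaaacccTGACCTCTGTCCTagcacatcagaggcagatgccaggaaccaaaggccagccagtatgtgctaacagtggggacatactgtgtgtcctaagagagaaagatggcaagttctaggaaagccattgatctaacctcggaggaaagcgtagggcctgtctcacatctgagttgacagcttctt
near Ndufv1: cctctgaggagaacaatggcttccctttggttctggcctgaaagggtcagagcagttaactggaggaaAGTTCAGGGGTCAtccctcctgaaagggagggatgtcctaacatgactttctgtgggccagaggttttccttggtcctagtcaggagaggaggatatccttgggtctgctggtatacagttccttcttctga
Read on its own strand, the stretch is GGGCCAAAGGTCT at Cyp4a10, AGCTCACAGGTCA near Mup19, AGGACAGAGGTCA near Serpina4-ps1 and AGTTCAGGGGTCA near Ndufv1. A DR1 with at most 1 mismatch stood in 2.28% of the 12876 windows of this length around GPS2 peaks inside domains, in 1.78% of the 36441 inside narrower H3K27ac peaks, in 2.28% of the 6892 outside H3K27ac peaks and in 0.609% of the 3282 windows at the centres of domains. It stood in 21 of 675 GPS2 windows (3.11%) of domains that rose in Ncor LKO and in 8 of 172 (4.65%) of those that fell. These are matches of letters and no test was made of them.

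The median domain was 11319 bp wide (quartiles 9258 and 15561), and 431 were at least 20000 bp wide. The widest lay over Mtss1, an actin-binding scaffold gene (chr15:58800478-58917852, 117374 bp), followed by Rxra, the partner of PPARα (99844 bp), Shb (93422 bp), Tns1 (85994 bp) and Zmiz1 (80442 bp). WT acetylation, as tags per kb and per 10000000 tags averaged over the Ncor and Smrt WT libraries, had a median of 63.6 in domains and 15.03 in the narrower peaks. The densest domains were those over Tnrc18 (212 tags per kb), over Plekhg2 and Zfp36 (201), over Hjurp (199), over Id2 (198) and over Gcat (194). Zfp36 encodes an mRNA-decay factor and Id2 an inhibitor of helix-loop-helix factors. None of these wide or dense domains was called in any of the H3K27ac comparisons.

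The width limit fell in an unbroken range of sizes. Just inside it were the domains near Lncenc1 (8002 bp), near Usp12 (8003 bp) and near Fgd2 (8006 bp), and just outside the peaks near Lrrc8d (7999 bp), at Rassf7 (7997 bp) and near Chn2 (7995 bp). A peak of at least 8000 bp was called over 1002 domains (30.5%) in every one of the 12 single libraries, and over 201 domains in none of them, since the peak set merges the peaks of several libraries.

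The domains held the transcription start site of 2136 genes, 9.61% of the 22232 protein-coding genes of the annotation. A start site lay in 1846 domains (56.2%, beside 16.6% of narrower peaks), 308 held at least 2 and 1438 held none. An H3K4me3 peak, the mark of active promoters, was present in both Gps2 WT libraries in 2424 domains (73.8%, beside 23.4% of narrower peaks) and in neither in 661. By the authors' annotation of peak centres, 2163 domains were intronic, 723 intergenic and 166 at promoters.

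The domains held most of the genes listed for hepatocyte identity and for plasma proteins, beside the 9.61% of all genes. Of the hepatocyte transcription factors listed, 21 of 25 started in a domain, among them Hnf4a, Cebpa, Foxa2, Nr1h4 and Ppara itself, and of the plasma proteins 32 of 36, among them Alb, Ttr and the fibrinogen genes. For sterol and bile acid handling it was 18 of 19, for lipogenesis 18 of 20 and for glucose and amino acid metabolism 18 of 23. For PPARα targets it was 20 of 35, for female-biased genes 10 of 22 and for male-biased genes 11 of 21, and 15 of the 35 PPARα targets lay in narrower peaks only. Pdk4, the kinase that shuts pyruvate out of oxidation and a PPARα target, was one of these, with a promoter peak of 5226 bp. All 6 hepatocyte markers lay in domains, beside 3 of 9 Kupffer cell, 5 of 8 endothelial, 3 of 9 stellate cell, 3 of 7 lymphocyte and 0 of 7 cholangiocyte markers. The livers thus carried hepatocyte markers in domains throughout and also some of the markers of other cells, which a whole-liver library contains. In bulk libraries like these, fewer cells of a type and less signal per cell cannot be told apart.

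**Figure D1:**
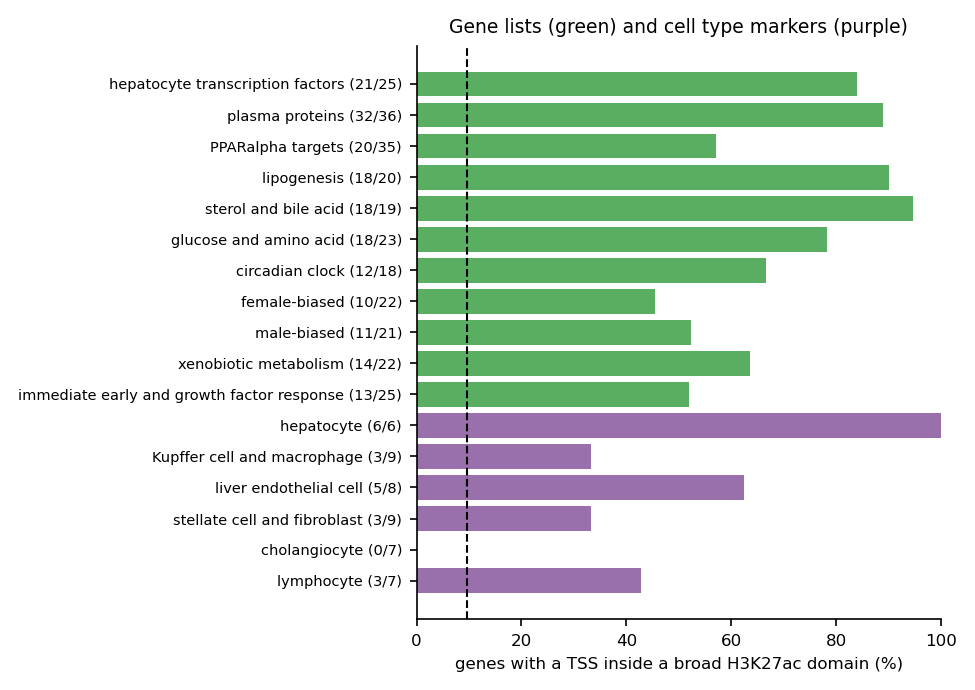
Percent of the annotated genes of each list (green) and of each set of cell type markers (purple) whose transcription start site lies in a broad H3K27ac domain, with the counts beside the bars and all protein-coding genes (9.61%) as a dashed line. Hepatocyte markers (6 of 6), sterol and bile acid handling (18 of 19) and lipogenesis (18 of 20) are at the top, followed by plasma proteins (32 of 36) and hepatocyte transcription factors (21 of 25), and no cholangiocyte marker (0 of 7) lay in a domain.

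Corepressor and PPARα sites were present in nearly every domain. A site was a merged peak found in at least 2 WT samples, which left 43232 GPS2, 80196 NCOR and 63025 PPARα sites. GPS2 was present in 3120 domains (95.01%, beside 33.0% of narrower peaks), NCOR in 98.6% (48.8%) and PPARα in 95.1% (41.2%). All 3 were present in 3061 domains (93.2%, beside 30.6% of narrower peaks) and none in 42. The 3 PPARα libraries of GPS2_WT differed among themselves by less than the sampling noise of their counts and were counted as 1 sample.

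The number of sites went with width. The median domain held 3 GPS2 sites (quartiles 2 and 4), 4 NCOR sites (3 and 5) and 4 PPARα sites (2 and 5), and across domains the number of sites had a Spearman correlation with width of 0.55 for GPS2, 0.63 for NCOR and 0.61 for PPARα. Per 10 kb there were 2.26 GPS2 sites in domains and 2.39 in narrower peaks. For NCOR it was 3.04 and 4.002 and for PPARα 2.82 and 3.27, so per base the sites of each factor were sparser in domains. Among the named domains the most GPS2 sites lay over Zmiz1 (21), Shb (17), near Ptpn1 (16) and over Mtss1 and Tns1 (14 each). The Rxra domain, second in width, held 6 GPS2 but 23 NCOR and 22 PPARα sites. With a site required in every WT sample, 33.2% of domains kept a GPS2 site, 83.9% an NCOR site and 48.2% a PPARα site. Such sites were not sparser in domains. Per 10 kb there were 0.297 for GPS2, 1.324 for NCOR and 0.53 for PPARα, beside 0.218, 1.318 and 0.299 in narrower peaks.

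In Ncor LKO livers, 173 domains (5.27%) were higher in H3K27ac and 41 (1.25%) lower at an adjusted p below 0.05, beside 2.32% and 0.801% of all 68817 peaks tested. Of the 173, 45 were at least 2-fold higher. PPARα target genes (Cyp4a10, Cyp4a14, Ehhadh), lipid synthesis genes (Elovl5, Scd1, Insig2) and Abcb11, the bile salt export pump, were among the genes with risen domains, and 4 male-biased genes (Slco1a1, Gstp1, Serpina1e, C6) among those with fallen ones. The median log2 fold change over all domains was 0.02, so the change lay in a minority of domains. The median SE of the log2 fold change was 0.11 in domains and 0.21 in narrower peaks. Narrower peaks were also taken whose mean in the 3 Ncor WT libraries reached the lower quartile of domains (441.7 tags per 10000000). Of these 1335, 6 were higher and 15 lower. Those libraries are the WT group of this comparison, so choosing peaks high in them disfavours rises and favours falls. These counts therefore do not show that domains and narrower peaks differ. The values of 3 WT and 3 LKO libraries did not overlap in 593 domains with the LKO higher and in 365 with the LKO lower, beside 10.6% and 9.04% of all peaks. Rises and falls numbered 77 and 13 without Ncor WT 1, 58 and 7 without Ncor WT 2 and 70 and 11 without Ncor WT 3, and there were 66 falls without Ncor LKO 2. Of the 26 calls named for Ncor, 12 held whichever library was left out: the rises of 9030619P08Rik, Acnat2, Cyp4a10 and Ehhadh and near Mup19, Acot11 and Tssc1, and the falls at Keg1 and near Taf2, Ccny, Col27a1 and Ndufv1. The other 14 kept their direction.

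The largest rise among the named domains was at 9030619P08Rik, in the Ly6 gene region (chr15:75252551-75263034). Its H3K27ac was 131, 119 and 125 tags per 10000000 in Ncor WT 1 to 3 and 540, 574 and 514 in Ncor LKO 1 to 3, a log2 fold change of 2.12 ± 0.10 (SE, adjusted p = 4.70e-05). Acnat2, an acyltransferase that conjugates fatty acids to amino acids (chr4:49385103-49397319), had 106, 189 and 144 in WT and 502, 785 and 521 in LKO (2.04 ± 0.22, adjusted p = 0.00297). The domain near Mup19, in the cluster of major urinary protein genes (chr4:61449715-61473882), had 731, 482 and 288 in WT and 1926, 1833 and 1993 in LKO (1.94 ± 0.26, adjusted p = 0.00517). In all 3 domains every LKO library lay above every WT library. In the same domains the Smrt-line WT libraries already stood at 746, 803 and 764, at 645, 813 and 597, and at 1580, 1413 and 1731. The Mup, Acnat and Ly6 genes have near-identical copies, so the tags may be shared between copies.

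The domains near Asap2 (2.09, adjusted p = 0.0178), near Acot11 (1.86, adjusted p = 0.00322) and near Tssc1 (1.85, adjusted p = 0.00441) completed the largest rises. Near Asap2 the values were 65.95, 60.2 and 52.6 in WT and 452, 162 and 145 in LKO. Ncor LKO 1 was thus much the highest there.

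PPARα target genes followed. Cyp4a10, a fatty acid ω-hydroxylase (chr4:115184759-115195511), had 275, 333 and 295 tags in WT and 679, 733 and 755 in LKO (log2 fold change 1.26 ± 0.10, adjusted p = 0.00152). Its neighbour Cyp4a14 (chr4:115164824-115173024) had 106, 195 and 242 in WT and 448, 452 and 353 in LKO (1.21 ± 0.24, adjusted p = 0.0267). Ehhadh, the bifunctional enzyme of peroxisomal β-oxidation (chr16:21778294-21795314), had 637, 615 and 663 in WT and 1197, 1270 and 1045 in LKO (0.87 ± 0.10, adjusted p = 0.00349). In each of the 3 the groups did not overlap. They were the only called domains among the 17 that held a PPARα target, whose median log2 fold change was −0.02. Over all domains 5.27% rose and 1.25% fell. Pdk4 had no domain, and its promoter peak rose by 0.65 (adjusted p = 0.0236).

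Of the 20 domains with lipogenesis genes, 3 rose and 1 fell, with a median of 0.04. Elovl5, the elongase of polyunsaturated fatty acids, had 1023, 1073 and 1151 in WT and 1566, 1684 and 1358 in LKO (0.50 ± 0.10, adjusted p = 0.0292). Scd1, the stearoyl-CoA desaturase, had 932, 786 and 1246 in WT and 1939, 1708 and 1361 in LKO (0.76 ± 0.17, adjusted p = 0.0442), and Insig2, which holds the SREBP escort protein in the endoplasmic reticulum, rose by 0.52 (adjusted p = 0.0265). In all 3 the lowest LKO library lay above the highest WT library. Aacs, which activates acetoacetate for lipid synthesis, fell by 0.74 (adjusted p = 0.0256), from 2072, 2185 and 1800 to 1350, 923 and 1351. Abcb11 rose by 0.62 (adjusted p = 0.0116) and Nfil3, a repressor tied to the circadian clock, rose by 0.59 (adjusted p = 0.024). No domain of the hepatocyte transcription factors (0 of 23), of the plasma proteins (0 of 28), of the glucose and amino acid list (0 of 19) or of the immediate early list (0 of 12) was called. Over all domains 5.27% rose and 1.25% fell, so at that share lists of these sizes would hold few calls. Whether any list differs from it was not tested.

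**Figure D2:**
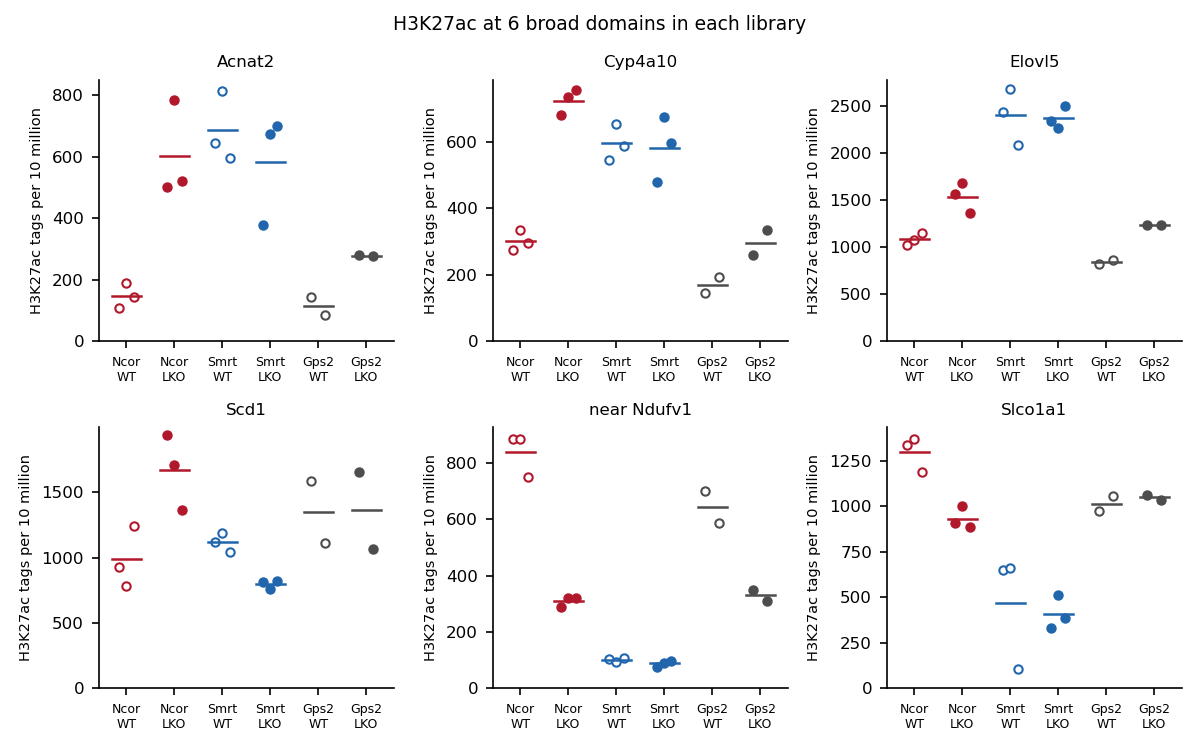
H3K27ac tags per 10000000 in 6 domains (panels) in every library of the Ncor, Smrt and Gps2 lines, with points for libraries and a bar for each group mean. In the Acnat2 panel the 3 Ncor WT libraries (106 to 189) lie below all Ncor LKO and all Smrt-line libraries, and the domain near Ndufv1 is lower in Ncor LKO and Gps2 LKO and near 100 tags in all Smrt libraries.

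The falls in Ncor LKO were led by the domains near Taf2 (−1.65, adjusted p = 0.00266), near Ccny (−1.64, adjusted p = 0.00277) and near Col27a1 (−1.54, adjusted p = 0.00152). Near Ndufv1, between genes of chromosome 19 (chr19:4018118-4027443), the values were 886, 884 and 750 in WT and 289, 319 and 321 in LKO (−1.44 ± 0.10, adjusted p = 0.00152). Near Serpina4-ps1, in the Serpina cluster, H3K27ac fell by 1.05 (adjusted p = 0.022), and at Keg1 by 0.83 (adjusted p = 0.00635). In each the LKO libraries lay below the WT libraries. Near Ndufv1 and near Taf2 the Smrt line was low throughout, with between 77.0 and 107 tags and between 52.3 and 143 tags in its 6 libraries.

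Of the 11 domains with male-biased genes, 4 fell in Ncor LKO, none rose, and the median was −0.48, beside 1.25% that fell and 5.27% that rose over all domains. The domain near Mup19, which rose, holds no start site and is not among the 11. Slco1a1, an organic anion uptake carrier, had 1334, 1370 and 1189 in WT and 910, 1000 and 884 in LKO (−0.48 ± 0.10, adjusted p = 0.0273). Gstp1, a glutathione transferase, fell by 0.67 (adjusted p = 0.00881), Serpina1e, an α1-antitrypsin, by 0.67 (adjusted p = 0.0114) and C6, a complement component, by 0.62 (adjusted p = 0.0194). Of the 10 domains with female-biased genes, 2 rose, and both were the Cyp4a genes given above. The female-biased P450 gene Cyp2b9 was at a low level in this line, with between 32.4 and 73.0 tags in the 6 Ncor-line libraries and between 1162 and 1319 in the 6 Smrt-line libraries. Cyp2a4, a steroid hydroxylase, had 29.7, 33.3 and 390 tags in Ncor WT and 116, 27.1 and 35.1 in Ncor LKO, so that Ncor WT 3 alone set its log2 fold change of −1.35 (adjusted p = 0.546).

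The domains that rose in Ncor LKO had fewer WT tags per kb, and the width rule bears on this, since peaks were merged over WT and LKO libraries. Of the 173, 112 had no single peak of at least 8000 bp in any Ncor WT library and 31 had none in any Ncor LKO library. Many thus passed the width limit through the group in which they were high, so neither their number nor their low WT level supports a difference between domains and narrower peaks. They had a median of 42.9 WT tags per kb beside 65.4 in the other domains, and 35.3% of them held a start site beside 57.5%. With the domains ordered by WT tags per kb and cut into 4 classes of 821, the share that rose was 10.6%, 6.33%, 3.17% and 0.974% from the sparsest to the densest class. The WT tags per kb come in part from the Ncor WT libraries of the comparison itself, so the ordering and the comparison are not independent. The Gps2 comparison shares no library with the ordering, and there the shares were 2.59%, 2.07%, 1.01% and 0.490%. Its domains were still chosen by the width rule in Ncor and Smrt libraries, so this ordering is not free of that choice. The share that fell was 0.974%, 1.95%, 1.10% and 0.974% over the same classes in Ncor LKO and 1.22%, 0.517%, 0.126% and 0.0% in Gps2 LKO. Domains without a start site rose in 7.79% and those with one in 3.30%, and the share that rose was 5.62%, 5.40% and 3.48% in domains of 8000 to 12000 bp, of 12000 to 20000 bp and wider. Factor sites were about as dense in them as elsewhere: per 10 kb there were 2.55 GPS2 sites in risen and 2.24 in other domains, 3.15 and 3.04 NCOR sites, and 3.02 and 2.81 PPARα sites.

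**Figure D3:**
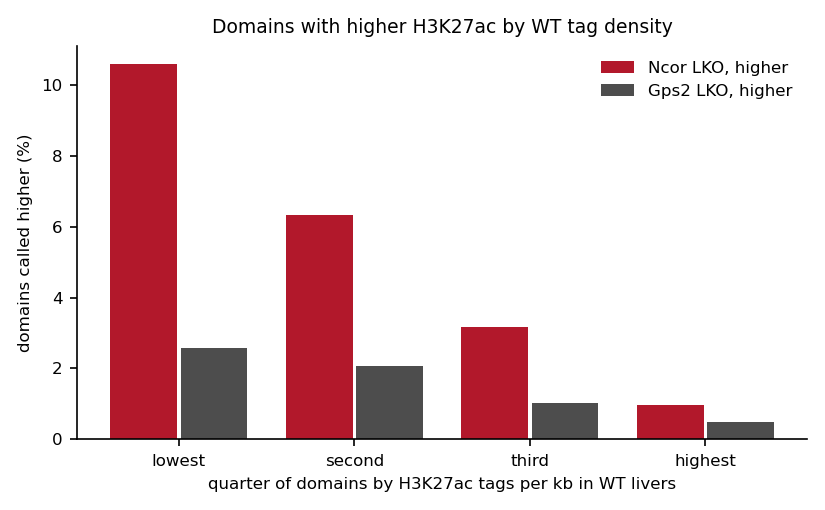
Percent of domains called higher in Ncor LKO and in Gps2 LKO (y axis) in 4 equal classes ordered by WT H3K27ac tags per kb (x axis, sparsest to densest). The share falls from 10.6% to 0.974% in Ncor LKO and from 2.59% to 0.490% in Gps2 LKO.

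In Smrt LKO livers no domain was called by edgeR in either direction (0.0% of all 68800 peaks tested), with 0.378 as the smallest adjusted p among domains. At an unadjusted p below 0.05 there were 320 domains, 110 higher and 210 lower, beside 5.93% of all peaks. DESeq2 called 7 domains: those near Capg, Dus2l, Tbl1xr1, Slc37a1, Prf1 and Tns1 were higher and that of Scd1 was lower. Scd1 had 1122, 1186 and 1042 tags in Smrt WT and 810, 762 and 818 in Smrt LKO (−0.49, adjusted p = 0.590 by edgeR), groups that did not overlap. Over all domains the groups did not overlap in 148 with the LKO higher and in 327 with the LKO lower, beside 5.8% and 6.08% of all peaks. The median over the 20 lipogenesis domains was −0.14 and 17 were negative, 9 of them at an unadjusted p below 0.05, among them Fasn, the fatty acid synthase (−0.40), and Srebf1, its regulator (−0.24). The median over all domains was −0.03. The circadian list had 5 of 12 domains lower at an unadjusted p below 0.05.

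The difference between the Ncor and Smrt effects was tested in all 12 libraries together. The Ncor effect lay above the Smrt effect in 41 domains and below it in 5, beside 0.33% and 0.0959% of all peaks. With 1 library left out, the 41 became between 13 (without Ncor WT 2) and 57, and the 5 between 2 and 8, and they were 14 and 3 without Smrt LKO 3. Scd1 lost its call without any of 5 of the 12 libraries. Among the 41 were 9030619P08Rik (difference 2.34, adjusted p = 0.00171), Acnat2 (2.27, adjusted p = 0.015), Cyp4a10 (1.29, adjusted p = 0.010), Scd1 (1.24, adjusted p = 0.0221) and Ehhadh (0.93, adjusted p = 0.0122). Further members were Prlr, the prolactin receptor (1.46), Cyp2c39 (1.36), Papss2, which makes the sulfate donor (1.13), and Ormdl3, a regulator of sphingolipid synthesis (1.08). Among the 5 were the domains near Ndufv1 (−1.23, adjusted p = 0.00832) and near Col27a1 (−1.57, adjusted p = 0.0122). For other domains named above the effects were not shown to differ, Cyp4a14 (1.05, adjusted p = 0.175), Elovl5 (0.52, adjusted p = 0.138) and Insig2 (0.45, adjusted p = 0.337) included.

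In Gps2 LKO livers, 47 domains (1.51%) were higher and 14 (0.449%) lower of the 3120 that could be matched to a peak of the Gps2 line, beside 1.21% and 0.212% of all 47108 peaks tested. With TMM scaling in place of the total tags these were 26 and 18. The median over domains was 0.04, beside 0.05 in narrower peaks. The other 164 domains had no matching peak that covered enough of them. Of the 3120, 196 shared their peak of the Gps2 line with another domain, so their Gps2 values are not separate measurements. These counts rest on 2 libraries a group: without Gps2 LKO 1 they were 174 and 164, without Gps2 LKO 2 120 and 34, and without Gps2 WT 1 or 2 they were 0 and 0, or 0 and 2.

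Acot4 and Acot3, thioesterases of peroxisomes (chr12:85377434-85398304), had 313 and 407 tags in Gps2 WT 1 and 2 and 758 and 1133 in Gps2 LKO 1 and 2 (log2 fold change 1.39 ± 0.19, adjusted p = 0.0223). Cyp2c29, a drug-metabolizing P450 (chr19:39355933-39365890), had 279 and 286 in WT and 697 and 671 in LKO (1.27 ± 0.08, adjusted p = 0.00252). Mfsd2a, the carrier of lysophospholipids (chr4:122628210-122639435), had 888 and 1025 in WT and 2164 and 2051 in LKO (1.14 ± 0.10, adjusted p = 0.00645). In all 3 the LKO libraries were apart from the WT libraries. In Ncor LKO the Acot4 and Acot3 domain (−0.23, adjusted p = 0.73) and the Mfsd2a domain (−0.32, adjusted p = 0.414) were not called. Smaller rises were called at Slc16a5, a monocarboxylate carrier (0.91), Cyp2a5 (0.76), Cp, which encodes ceruloplasmin (0.49), and Gsta3 (0.41). Acot, Cyp2a and Cyp2c genes have near-identical neighbours, so these values are uncertain as to the copy.

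Cyp4a10 and Cyp4a14 were not called in Gps2 LKO, though the groups did not overlap: Cyp4a10 had 144 and 193 in WT and 257 and 333 in LKO (0.80 ± 0.17, adjusted p = 0.0653) and Cyp4a14 had 71.5 and 126 in WT and 202 and 343 in LKO (1.46 ± 0.29, adjusted p = 0.0614). Ehhadh had 712 and 765 in WT and 744 and 789 in LKO (0.05, adjusted p = 0.841). These 3 PPARα targets thus had called domains in Ncor LKO, while the domain of Acot4 and Acot3 had its call in Gps2 LKO. Groups of 2 are often apart: over all matched domains they did not overlap in 1040 with the LKO higher and in 476 with the LKO lower, beside 30.1% and 14.6% of all peaks. Whether the Gps2 and Ncor effects differ was not tested, since the lines were counted on separate peak sets.

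The falls in Gps2 LKO were fewer and steep. Near Dpy19l3 the values were 416 and 298 in WT and 77.9 and 42.5 in LKO (−2.57 ± 0.26, adjusted p = 0.00932). A pair of adjoining domains near Rassf3 fell together, from 356 and 328 to 64.7 and 62.2 (−2.43 ± 0.11, adjusted p = 5.86e-04) and from 1823 and 1793 to 554 and 522 (−1.75 ± 0.08, adjusted p = 5.86e-04). The domain near Jph4 fell by 1.88 (adjusted p = 0.00792) and that of Zfp445, a zinc-finger regulator of imprinting, fell by 1.25 (adjusted p = 0.0294). All LKO values lay below the WT values. In the Smrt line the narrower of the Rassf3 domains had between 50.01 and 73.4 tags, WT and LKO alike, beside 315 to 486 in Ncor WT.

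Ncor and Gps2 LKO called 17 domains higher in both, 9.83% of the Ncor rises and 36.2% of the Gps2 rises. They were Acnat2, Elovl5, Insig2, Cyp2c29, Cyp2c39, Lipc (hepatic lipase), Clpx (a mitochondrial unfoldase), the pair Clic3 and BC029214, and domains near Gldc, 1500017E21Rik, Paqr9, 4930547E08Rik, BC051665, Tet2, Gm14635, Dnaja2 and Cyp3a11. The domains near Ccny and near Ndufv1 were lower in both, and those near Mup18 and near Mir5098 were higher in Ncor and lower in Gps2 LKO. Beside its Ncor values above, the Elovl5 domain called in both had 820 and 860 in Gps2 WT and 1238 and 1239 in Gps2 LKO (0.56 ± 0.08, adjusted p = 0.0224). That Gps2 value rests on a peak covering 0.65 of the domain. With all overlapping peaks summed it was 0.35 (adjusted p = 0.107) and not called. The adjoining Elovl5 domain was called in neither line (Ncor 0.96, adjusted p = 0.0906, and Gps2 0.32, adjusted p = 0.206). The domain near Ndufv1 had 699 and 587 in Gps2 WT and 350 and 311 in Gps2 LKO (−0.96 ± 0.11, adjusted p = 0.013).

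Of the 147 Ncor rises with a Gps2 value, 117 had a positive Gps2 log2 fold change, with a median of 0.21, beside 61.2% positive among all matched domains. Of the 173, 104 had a positive Smrt log2 fold change, with a median of 0.07, beside 41.8% positive among all domains. Of the 40 Ncor falls with a Gps2 value, 33 were negative, with a median of −0.18. Across domains the Ncor and Gps2 log2 fold changes had a Pearson correlation of 0.34 and a Spearman correlation of 0.27 (n = 3120), the Ncor and Smrt ones 0.15 and 0.11, and the Smrt and Gps2 ones 0.13 and 0.077. The 3 comparisons share no library, and these are descriptions across domains, which are not replicates. Of the 3120 domains, 196 share their Gps2 value with another.

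**Figure D4:**
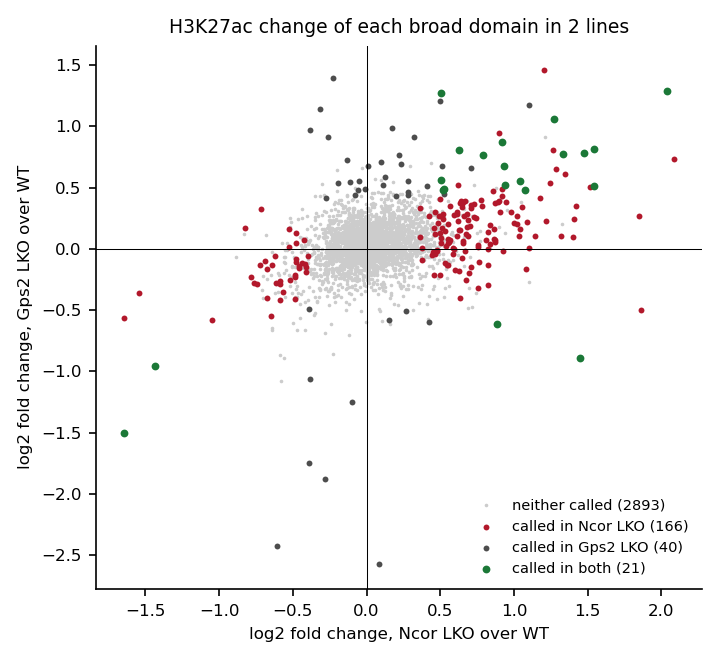
Log2 fold change of H3K27ac in Ncor LKO (x axis) and in Gps2 LKO (y axis) for the 3120 domains with both values, colored by the calls. Of these domains 2893 were called in neither, 166 in Ncor LKO alone, 40 in Gps2 LKO alone and 21 in both, 17 of them at the upper right.

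The Gps2-called domains also differed between the WT livers of the other lines. Over all 3284 domains, the mean of the Smrt WT libraries was above that of the Ncor WT libraries in 63.9%, with a median log2 ratio of 0.11. Of the 47 domains higher in Gps2 LKO it was above in 45 (95.7%), with a median of 0.65 and 14 at least 2-fold above. Of the 14 domains lower in Gps2 LKO it was above in 2 (14.3%), with a median of −1.24 and 8 at least 2-fold below. The Gps2 libraries take no part in that ratio. The domains, however, were chosen by width in peaks merged over Ncor and Smrt libraries. A region low in Ncor WT could pass through libraries where it was high, so the ratio is not independent of that choice. The Smrt WT mean was also above in 157 of the 173 Ncor rises (90.8%) and in 5 of the 41 Ncor falls (12.2%). Those calls use the Ncor WT libraries of the ratio themselves. The Smrt WT libraries carry Xist and no chromosome Y tags, and this cannot be told apart from the line.

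GPS2 occupancy inside the domains was lower in Ncor LKO livers in most peaks, though hardly any single peak was called. Of 12882 GPS2 peaks inside domains, 0 were higher and 2 lower, beside 0.0% and 0.0338% of all 56278 peaks tested. The median log2 fold change was −1.29 and 94.2% were negative, beside −1.08 and 88.8% in narrower H3K27ac peaks and −0.92 and 79.1% outside H3K27ac peaks. These differences between sets of peaks were not tested. The GPS2 peaks inside domains took 2.69%, 2.69% and 0.967% of the tags of WT 1 to 3 and 0.843%, 0.956% and 0.700% of LKO 1 to 3. WT 3 thus lay beside the LKO libraries and far from the other WT libraries. Without WT 3, 9856 peaks were lower and 19 higher, and without any other library 0 were lower. With TMM scaling, which moved the median of all peaks by 1.09 on the log2 scale, 131 were higher and 111 lower, and the median inside domains was −0.19.

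The called pair was a peak near Serpina4-ps1, the one printed above, with 35.4, 34.9 and 17.7 tags in WT and 2.96, 6.496 and 1.56 in LKO (−2.99 ± 0.69, adjusted p = 0.0462), and a peak of the domain that holds Usp39 and Tmem150a (−3.51, adjusted p = 0.05). The Cyp4a10 window had 63.6, 52.4 and 16.1 in WT and 8.87, 8.27 and 6.75 in LKO (−2.45 ± 0.65, adjusted p = 0.0761). The window near Mup19 had 47.5, 22.5 and 13.4 in WT and 8.38, 12.4 and 7.79 in LKO (−1.55, adjusted p = 0.0939). In each of these windows every WT library lay above every LKO library. Near Ndufv1, where H3K27ac fell, GPS2 had 8.29, 18.3 and 2.68 in WT and 1.48, 4.13 and 2.60 in LKO (−1.78, adjusted p = 0.0919), and there the groups overlapped.

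In Ppara KO livers, 0 of 7028 GPS2 peaks inside domains were higher and 15 lower, beside 0.0% and 0.273% of all 27842 peaks tested. Among the 15 were peaks at Acaa1b, a peroxisomal thiolase and PPARα target (−2.71, adjusted p = 0.0262), at Mfsd2a (−3.48, adjusted p = 0.0441), at Txnip (−2.74, adjusted p = 0.0483) and at Cbfa2t3 (−3.81, adjusted p = 7.34e-04). The 15 became 1, 0 and 3 without KO 1, 2 and 3, and 5 and 7 without WT 1 and 3. The GPS2 peaks inside domains took 0.780%, 0.721% and 1.28% of the tags of WT 1 to 3 and 0.618%, 0.573% and 0.297% of KO 1 to 3, so WT 3 was the high and KO 3 the low library. The median was −0.91, beside −0.92 in narrower H3K27ac peaks and −1.07 outside them, and TMM scaling, which moved the median of all peaks by 0.94, gave 2 higher, 4 lower and a median of 0.02 inside domains.

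**Figure D5:**
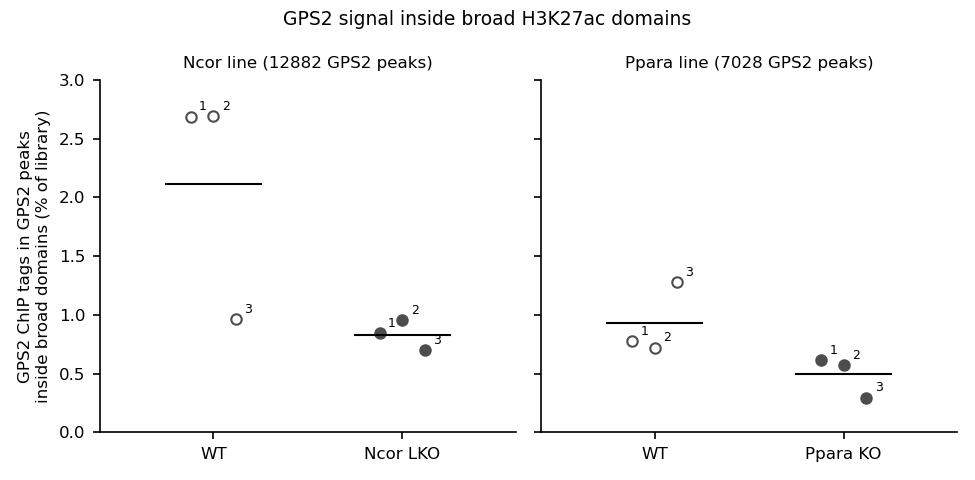
Percent of each GPS2 ChIP-seq library in the GPS2 peaks inside domains, in the Ncor line (12882 peaks) and the Ppara line (7028 peaks), with the replicate number beside each point. WT 3 of the Ncor line (0.967%) lies beside the LKO libraries (0.700% to 0.956%), and WT 3 of the Ppara line (1.28%) lies above all others.

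The genes of the domains were among the most expressed of the liver. CPM here are counts scaled to a fixed library size, with the library sizes adjusted by TMM. The median WT level was 16.2 CPM per kb of exon for genes that start in a domain, 3.73 for those in narrower peaks only and 0.546 for the rest. Of the 100 genes with the highest level per kb 86 started in a domain, and of the top 500 genes 323. Gps2 itself was 16.5, 15.8, 16.7 and 15.1 CPM in WT and 12.6, 9.84, 9.13 and 12.9 in LKO (−0.53, adjusted p = 0.0021), a fall with non-overlapping groups.

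In Gps2 LKO livers, 566 of the 1888 tested genes of domains (30.0%) rose and 550 (29.1%) fell, beside 23.4% and 21.4% of all 12220 genes. Scaling to total counts gave 324 and 862 and moved the median of all genes by −0.18. Marker genes of other cells moved too: 9 of 9 stellate cell markers rose, with their sum between 209 and 218 CPM in WT and between 398 and 436 in LKO. Of the 9 Kupffer cell markers 8 rose (156 to 160 in WT and 209 to 248 in LKO), of the 8 endothelial markers 2, of the 6 cholangiocyte markers 3 and of the 6 hepatocyte markers 3. None of them was at 0 in a library. The part of these cells in the results was not tested.

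Most genes that start in a called Gps2 domain moved in RNA in the direction of the domain. Of 27 tested genes that start in Gps2 rises, 20 rose in RNA and 2 fell, and all 3 that start in Gps2 falls fell. Among all tested genes of domains 30.0% rose and 29.1% fell. The Acot3 RNA had 2.18, 3.93, 2.85 and 2.68 CPM in WT and 50.04, 44.9, 44.8 and 43.9 in LKO (log2 fold change 3.98, adjusted p = 3.52e-11), and Mfsd2a had 49.8, 50.7, 47.1 and 45.9 in WT and 263, 251, 224 and 257 in LKO (2.37, adjusted p = 1.12e-11). Cyp2c29 rose by 1.24 and Slc16a5 by 2.81, and Zfp445 fell by 0.94. In each of these every LKO library lay outside the WT range. Cp, whose domain rose, had an RNA log2 fold change of −0.00065 (adjusted p = 0.994).

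RNA also changed where the domain had not been called. Apoa4, an apolipoprotein that shares a domain of 54244 bp with Apoa1, Apoc3 and Sik3, had 236, 222, 222 and 235 CPM in WT and 4818, 3669, 4576 and 4745 in LKO (4.29, adjusted p = 3.55e-13), while H3K27ac of that domain changed by 0.23 (adjusted p = 0.39). Cyp4a14 RNA rose by 4.85 (adjusted p = 6.76e-13), from 4.05, 4.17, 3.38 and 5.18 to 127, 126, 108 and 118. The female-biased genes Cyp2a4 (8.51) and Cyp2b9 (8.74) had the largest folds of the named genes, from 2.43, 2.62, 2.91 and 5.24 to 1284, 1032, 1234 and 1229 for Cyp2a4. The domains of these P450 genes had no single matching peak in the Gps2 line. Of the genes of the Ncor rises, 25 of 60 tested rose in Gps2 LKO and 13 fell, and of those of the Ncor falls 6 of 21 rose and 9 fell. Among all tested genes of domains 30.0% rose and 29.1% fell, and whether these counts differ from those shares was not tested.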

How the data were processed

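ChIP-seq of H3K27ac, H3K4me3, GPS2, NCOR and PPARα and RNA-seq of mouse livers were used. The authors aligned reads to mm9, called and merged peaks with HOMER and deposited raw tag counts per peak with the total tags of each library. The deposited RNA-seq table holds raw counts per gene, and the counting program is named in the table as Subread. Peak lists of single libraries held positions and a constant score, of which the deposited positions alone were used. Columns of the authors' own comparisons hold fold changes and p-values and were not used.

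Counts were tested with edgeR 4.0.16 (quasi-likelihood, R 4.3.3) over all peaks with at least 1 tag, with total tags as library sizes, and over genes with TMM after filterByExpr. P-values were adjusted by Benjamini-Hochberg over all features tested and called below 0.05. Fold changes are given as log2 with SE, and the steps were tested on simulated data. DESeq2 1.42.0, a replicate block, TMM or total-count scaling, a mean of at least 10 tags, other widths (6000 and 12000 bp) and overlaps, and leaving out each library were tried as alternatives. A domain of the Gps2 line took the peak that covered most of it, if at least 0.5 of its length was covered. Factor sites needed 2 WT samples. Replicate numbers did not pair WT and LKO libraries. The paper calls the replicates biological, but no label says that libraries came from separate animals, so p-values measure the spread between libraries. GPS2 libraries held 12.0 to 20.3 M tags and RNA libraries 13.2 to 20.1 M counts.

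Domains are named by the genes that start in them, otherwise by the nearest gene. The members, gene lists and tests were chosen with earlier results of these data known. Named were the 6 largest called rises and falls of each H3K27ac comparison with non-overlapping groups, the 5 widest, the 5 densest, the 5 with most GPS2 peaks of the Gps2 WT list, those nearest the width limit, those over Pdk4 and Cyp4a14, and of each list the called domains (at most 4) and the first 2. Domains named only because they were called in more than 1 comparison, in the difference or by DESeq2, and GPS2 peaks and genes named for their calls were chosen after their values were seen. PolII, input and the other ChIP-seq count tables were not used here.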

Additional observations from a re-analysis of the deposited data

Results flagged for a closer look

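The effect of the deletion differed between the Ncor and Smrt lines by the test of the difference at 10 of the named domains. The Ncor minus Smrt difference of log2 fold changes was 2.447 near Acot11, 2.401 near Mup19, 2.342 at 9030619P08Rik, 2.271 at Acnat2, 1.293 at Cyp4a10, 1.244 at Scd1, 0.928 at Ehhadh, −1.227 near Ndufv1, −1.567 near Col27a1 and −1.941 near Ccny. Near Acot11 the Smrt line moved the other way, with 242, 227 and 335 tags in WT and 169, 215 and 151 in LKO (−0.58, adjusted p = 0.834), as did Scd1. Near Mup19 the Smrt LKO libraries (976, 1393 and 1060) also lay below the Smrt WT libraries (1580, 1413 and 1731). The lines differ in the sex-linked signal given above, which cannot be told apart from the line.

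Single RNA libraries stood apart from the other 3 of their group for a few genes of the domains, measured as the gap to the nearest library over the range of the group. They were Aacs (265.2 CPM in LKO), Acot3 (50.04 in LKO), Pck1 (3084 in LKO), Srebf1 (760.2 in LKO), Apoa1 (9807 in WT and 8415 in LKO), Gstp1 (628.3 in WT) and Serpina1e (13470 in WT). Chance alone sets apart about 5% of groups in this way.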

How the results depend on the processing

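None of the values named in the text was reversed under any alternative run, a reversal being a change of sign with a call or by more than 2 SE. Sizes did move. With overlapping peaks summed, Elovl5 in Gps2 LKO went from 0.56 (SE 0.08) to 0.35, and scaling RNA to total counts moved the median log2 fold change of all genes by −0.18. Ncor rises (173) numbered 113 with a replicate block and 58 to 187 with a library left out, and falls (41) 19 with the block, 73 by DESeq2 and 7 to 66 with a library left out. Of 26 named Ncor calls, the block ended 7 and leaving out a library ended 14. For Smrt, DESeq2 gave 6 rises and 1 fall. The Ncor minus Smrt difference, 41 above and 5 below, gave 15 and 2 with the block, 96 and 20 by DESeq2 and 13 to 57 and 2 to 8 with a library left out, and 0.0% below at a width of 12000 bp. Gps2 rises (47) numbered 190 with the block, 26 with TMM and 0 to 174 with a library left out, falls (14) 99 with the block, 46 by DESeq2 and 0 to 164, and the median (0.04) was −0.017 by DESeq2 and −0.012 with TMM. Each of the 19 named Gps2 calls was lost with some library left out, and 4 were lost with TMM.

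GPS2 peaks inside domains of the Ncor line, 0 higher and 2 lower, numbered 2 and 3965 with the block, 55 and 31 by DESeq2, 131 and 111 with TMM, 1662 lower with the filter, and 0 to 19 and 0 to 9856 with a library left out, and their median was −0.16 by DESeq2 and −0.19 with TMM. In the Ppara line, 15 lower became 0 with the block, 2 by DESeq2, 32 with the filter, 4 with TMM (2 higher) and 0 to 12, and the median 0.0093 by DESeq2 and 0.023 with TMM. RNA gave 324 and 862 with total counts, and its median was −0.014 by DESeq2, −0.17 with total counts, −0.024 with the nearest gene and −0.013 to 0.018 with a library left out. With every WT sample required, 33.2% of domains kept a GPS2 and 48.2% a PPARα site. The libraries share only a number: the correlations of same-numbered deviations were −0.054, −0.073 and −0.195 in the Ncor line, −0.001, −0.201 and −0.149 in the Smrt line, 0.06, 0.139 and 0.092 for GPS2 in the Ncor line, −0.509, −0.315 and −0.548 in the Ppara line, 0.118, 0.189, 0.048 and 0.203 for RNA, and 0.196 for both pairs of the Gps2 line. The cause of these shifts was not tested.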

Other observations

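Some domains of P450 and urinary protein gene families had no single matching peak in the Gps2 line and were given a value there by summing all overlapping peaks. On that scale, Cyp2a4 rose by 2.54 (adjusted p = 0.00715) and Cyp2b9 by 1.32 (adjusted p = 0.043) in Gps2 LKO. The domain near Mup19, in the cluster of major urinary protein genes, fell by 1.36 (adjusted p = 0.00564). The domain near Mup19 had risen in Ncor LKO, by 1.94. These families have near-identical copies, so tags of 1 copy may be counted at another.

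The domain near Cldn5, named for the gene of a tight-junction protein, was higher in the LKO mean of all 3 lines. It had 104 and 118 tags in Gps2 WT and 243 and 261 in Gps2 LKO (log2 fold change 1.17, adjusted p = 0.00792), 131, 159 and 156 in Ncor WT and 535, 114 and 307 in Ncor LKO (1.10, adjusted p = 0.2), and 381, 387 and 121 in Smrt WT and 602, 569 and 779 in Smrt LKO (1.13, adjusted p = 0.834). The groups overlapped in the Ncor line because Ncor LKO 2 was the lowest library, and they did not overlap in the other two.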
